A study of Mus musculus with 6 samples.

Results

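Receptor tyrosine kinases sit in the cell membrane, bind a growth factor, a membrane-bound ligand or collagen on the outside, and phosphorylate tyrosines on the inside. Adaptor proteins dock on these phosphotyrosines and pass the signal to the RAS-ERK and PI3K-AKT pathways. In lung carcinoma they are known as drivers of growth, survival and invasion and as drug targets. The 10 genes described are Egfr, Met, Axl, Igf1r, Insr, Fgfr1, Pdgfrb, Epha2, Ddr1 and Ddr2. They were picked out by symbol, from a list drawn up with earlier results of these data known. All 10 were found among the 24794 genes of the count table and all 10 passed the filter on low counts that left 13779 genes for testing.

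The libraries come from Lewis lung carcinoma (LLC) cells, a mouse line derived from a lung tumour, and hold polyadenylated RNA. For 3 of them the cells had received miR-291-3 mimics, and for 3 the mimics control. A mimic is a synthetic double-stranded RNA that stands in for a microRNA. No other agent, dose or harvest time is named in the labels, and the design text equates the mimic with overexpression of miR-291a-3p. Nothing states that the 3 libraries of a group were separate cultures, and the tests rest on a library-to-library spread that could be purely technical. Depth was 25376993 to 32963986 counts per library, of which the 10 genes took 0.116% to 0.122%. Of the 7 carcinoma and epithelial markers listed, Krt8 stood at 493 ± 7.41 CPM in the controls (CPM, counts scaled to library size with TMM factors; SD, n = 3) and Krt18 at 1.97 ± 0.364 CPM. Both rose with the mimic, to 552 ± 8.98 and 3.65 ± 0.659 CPM (adjusted p = 3.11e-08 and 2.71e-05, edgeR), while Epcam and Cdh1 were under 1 CPM. The other 3 of the 7 had no row under their symbols in the count table used. The summed level of the 4 endothelial markers with a value stayed under 1 CPM in every library. Of the 8 leukocyte markers with a value, 4 (Ptprc, Adgre1, Itgam and Cd79a) were under 1 CPM. The sum over the 8 was 18.04 to 20.3 CPM in the controls and 11.1 to 12.3 CPM in the mimic libraries. Of the 5 leukocyte markers tested, 2 fell and 3 did not pass. Cd14 fell from 9.62 ± 0.847 to 6.30 ± 0.779 CPM and Lyz2 from 5.52 ± 1.46 to 2.78 ± 0.338 CPM (adjusted p = 4.149e-06 and 2.755e-06, edgeR). The part of the epithelial and leukocyte markers in the results, Ddr1 among them, was not tested.

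A microRNA recognises messages mainly through its seed, bases 2 to 8, which pair with matching bases in 3' untranslated regions (UTRs). The mature sequences below (RefSeq, GRCm38.p6) are shown because the label names only miR-291-3, and the cluster on chromosome 7 encodes both of these 3p arms. Capitals mark the seed, and miR-291b-3p has another base at its last position. The transfected duplex itself has no sequence in the labels. The seed of miR-291a-3p is shared, in the RefSeq table used, by miR-294-3p, miR-295-3p, miR-302b-3p and miR-302d-3p.
mmu-miR-291a-3p: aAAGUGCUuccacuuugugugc
mmu-miR-291b-3p: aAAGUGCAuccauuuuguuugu

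The 3' UTRs of the 10 genes were searched on the sense strand for AGCACTTA (8mer), AGCACTT (7mer-m8), GCACTTA (7mer-A1) and GCACTT (6mer), and each run of bases was credited to the longest of these words it holds. For each gene, GENCODE M21 on GRCm38 supplied the transcript with the longest coding part, which is not the GRCm39 build named in the submitters' processing notes. Of the 10 genes, 3 held a match of 7 or 8 bases, Epha2, Igf1r and Met, against 18.6% of 11652 tested genes with an annotated 3' UTR. The median UTR of those genes was 957 bases, and the receptor UTRs ran from 811 (Ddr1) to 7267 bases (Igf1r). The shares are not adjusted for length. The 3 sites are shown with 30 bases in all, capitals marking the match, because the results for these receptors are set beside them.
Epha2: ggacccagctaAGCACTTAgcagtttgcca
Igf1r: tgtttcgatttAGCACTTcttaccagagca
Met: ccacggacaatGCACTTAtttttaaacgag

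The Epha2 8mer lies at chr4:141328730-141328737 (plus strand, bases 212 to 219 of a UTR of 866 bases). That class of match was held by 3.24% of tested genes. The Igf1r 7mer-m8 lies at chr7:68228726-68228732 (plus strand, bases 2325 to 2331 of 7267), a class that was the best match of 12.4%. The Met 7mer-A1 lies at chr6:17572421-17572427 (plus strand, bases 598 to 604 of 2157), the best match of 3.0%. All 3 are exonic and inside the annotated 3' UTR. Ddr2 and Egfr held 2 matches of 6 bases each and nothing longer. A 6mer was the best match of 11.9% of genes. Axl, Ddr1, Fgfr1, Insr and Pdgfrb held none of the 4 words, like 69.5% of genes. In coding sequence, Axl and Met held 1 match of 7 or 8 bases each and the other 8 receptors none, against 15.1% of genes with at least 1. A match is a run of letters and was not tested as a site.

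In the comparison of mimic with control libraries, 6 of the 10 receptors rose (Pdgfrb, Insr, Met, Fgfr1, Axl and Igf1r), 1 fell (Ddr1), and 3 did not pass the test (Egfr, Epha2 and Ddr2; edgeR's quasi-likelihood test, with p adjusted by Benjamini-Hochberg over all 13779 genes and called under 0.05). The risen receptors changed by 8.39% to 24.6% and Ddr1 by -33.5%. Calls were common in this comparison: 49.1% of all tested genes passed, 24.3% upward and 24.8% downward. The CPM of the 3 mimic and 3 control libraries did not overlap for 7 of the 10 receptors, as for 54.9% of all tested genes. The median log2 change was 0.13 over the 10 receptors and -0.01 over all tested genes. In these bulk libraries, a lower level of a message in each cell and fewer cells that carry it cannot be told apart. Scaling by total counts alone lowered the median of all genes to -0.06 on the log2 scale, and 5 of the 6 rises remained called under it. The exception was Igf1r.

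**Figure D1:**
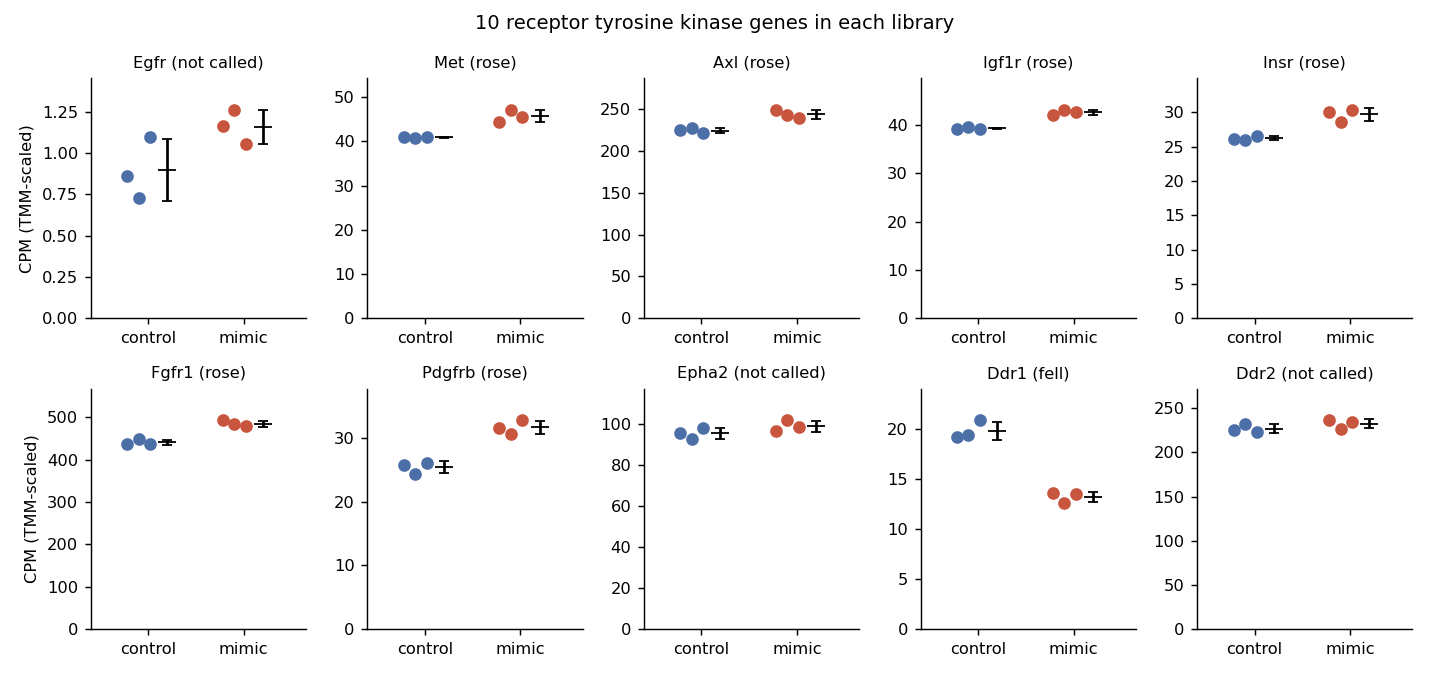
CPM (vertical axes, starting at 0, TMM-scaled) of each of the 10 receptor genes in the 3 control (blue) and 3 mimic (red) libraries, with the group mean and SD in black. The groups are separate for Met, Axl, Igf1r, Insr, Fgfr1, Pdgfrb and Ddr1 and overlap for Egfr, Epha2 and Ddr2.

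Levels can be compared between genes only per length, and for that the authors' FPKM values (fragments scaled to gene length and to library size) were used. Fgfr1 and Axl were the most abundant of the 10 in the controls, at 39.8 ± 0.751 and 39.7 ± 0.678 FPKM (SD, n = 3), and their libraries overlapped. Ddr2 followed at 21.7 ± 0.578 FPKM and Epha2 at 18.2 ± 0.42 FPKM, without overlap between the pair. Below a gap came Met (4.74 ± 0.01 FPKM), Pdgfrb (4.12 ± 0.133) and Ddr1 (3.68 ± 0.155), then Igf1r (2.08 ± 0.0153) and Insr (1.70 ± 0.0115). Each of these 5 was separated from the next in all control libraries. Egfr, the receptor mutated in many human lung adenocarcinomas, was near zero in this line at 0.0733 ± 0.0153 FPKM.

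The order of the 10 was the same in the mimic libraries, with shifts in spacing. Ddr1 was lower, at 2.39 ± 0.0737 FPKM, while Pdgfrb, at 5.01 ± 0.117 FPKM, overlapped with Met (5.16 ± 0.197 FPKM). Ddr1 still exceeded Igf1r (2.20 ± 0.0493 FPKM) in every mimic library. Among all 44 receptor tyrosine kinase genes with an FPKM value, 20 had a mean of at least 1 FPKM, 9 of the 10 among them. The 10 genes together made up 62.3% to 63.0% of the summed receptor FPKM in the controls and 60.6% to 62.4% in the mimic libraries. Axl, Fgfr1 and Ddr2 alone made up 45.4% to 47.4% over the 6 libraries. Ryk, which is not among the 10, stood above Ddr2 in both groups. It ranked 3 of the 44 in the controls (38.85 ± 0.26 FPKM) and 1 in the mimic libraries (49.5 ± 2.12 FPKM).

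**Figure D2:**
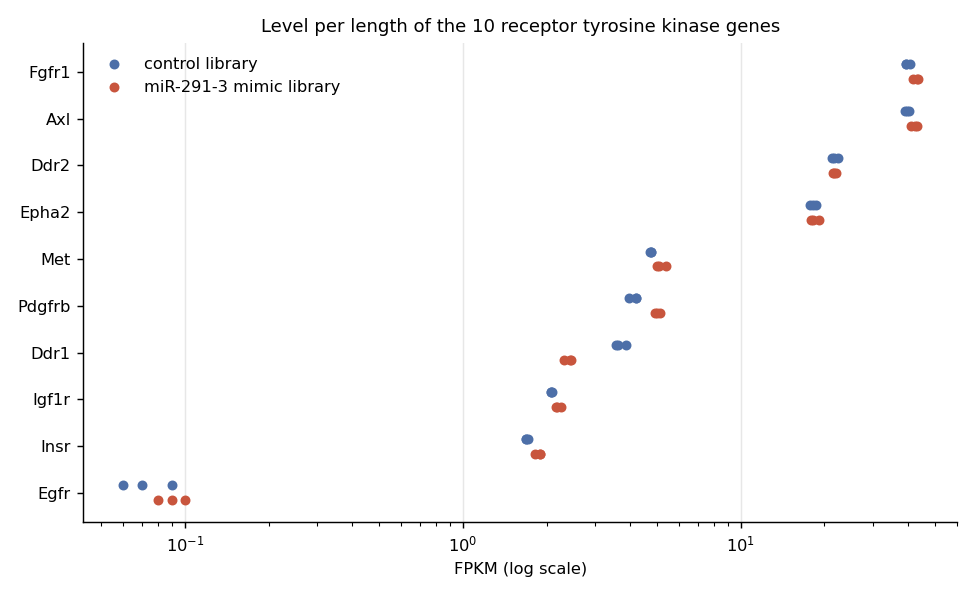
FPKM on a log axis of the 10 receptor genes, 1 point per library (control blue, mimic red), ordered by control level. Fgfr1 and Axl lead at about the same level in the controls, Egfr is far below the other 9, and Ddr1 is shifted to the left and Pdgfrb to the right in the mimic libraries.

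Among the receptors for soluble growth factors, Pdgfrb, the receptor for PDGF-B and PDGF-D that marks pericytes and fibroblasts, had the largest rise. It stood at 25.9, 24.4 and 26.1 CPM in the control libraries and at 31.6, 30.7 and 32.8 CPM in the mimic libraries (ENSMUSG00000024620.12, chromosome 18). Every mimic library lay above every control library. The log2 change was 0.32 ± 0.05 (SE, adjusted p = 1.68e-06, edgeR), a rise of 24.6%. The call held under all 14 other settings, with values of 0.23 to 0.34. Of 8 fibroblast markers with a value, 5 (Col1a1, Dcn, Fap, Postn and Acta2) had means under 1 CPM over the 6 libraries. The sum over the 8 was 29.7 to 33.9 CPM in the controls and 23.1 to 28.7 CPM in the mimic libraries, most of it from Pdgfra, which fell. Of the 4 fibroblast markers tested, Lum rose from 0.718 ± 0.13 to 1.74 ± 0.228 CPM and Acta2 from 0.0827 ± 0.0757 to 0.453 ± 0.126 CPM (adjusted p = 2.01e-05 and 0.00048, edgeR), and Col1a2 did not pass (log2 change 0.50, adjusted p = 0.0572). Col1a1, below the filter, reached 3.76 CPM in mimic library 2. Their part in the Pdgfrb result was not tested.

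Fgfr1, a receptor for fibroblast growth factors, held the most reads of the 10 (ENSMUSG00000031565.20, chromosome 8). Its control libraries were at 436, 448 and 437 CPM and its mimic libraries at 492, 484 and 478 CPM. The groups did not overlap, and the difference was small but larger than the spread (log2 change 0.14 ± 0.02, SE, adjusted p = 6.68e-07, edgeR). With total counts only it was 0.08 and still called (adjusted p = 0.000824).

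Met, the receptor for hepatocyte growth factor that drives cell scattering and invasion, varied little among the controls at 41.0, 40.9 and 41.0 CPM (ENSMUSG00000009376.16, chromosome 6). The mimic libraries had 44.5, 47.2 and 45.5 CPM. All 3 were higher than every control. The Met 3' UTR holds the 7mer-A1 word printed above. The log2 change was 0.16 ± 0.04 (SE, adjusted p = 0.000847, edgeR). On both FPKM scales the call was lost (adjusted p = 0.0535 and 0.051, limma on log2(FPKM + 1) and log2(FPKM + 0.1)).

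Igf1r and Insr are the closest relatives among the 10. Both signal through the insulin receptor substrates, Igf1r mainly for growth and survival and Insr mainly for metabolism. Igf1r was at 39.3, 39.5 and 39.3 CPM in the controls and at 42.1, 43.2 and 42.7 CPM in the mimic libraries (ENSMUSG00000005533.11, chromosome 7). Insr was at 26.2, 26.0 and 26.6 CPM and at 30.1, 28.6 and 30.4 CPM (ENSMUSG00000005534.11, chromosome 8). For both genes the lowest mimic library was above the highest control library.

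Insr rose by 0.18 ± 0.05 on the log2 scale (SE, adjusted p = 0.00234, edgeR) and Igf1r, whose 3' UTR holds the 7mer-m8 word, by 0.12 ± 0.04 (adjusted p = 0.0125). The Igf1r call was lost with total counts only (adjusted p = 0.205), with the DESeq2 Wald test (adjusted p = 0.0614) and on both FPKM scales, and the Insr call on both FPKM scales (adjusted p = 0.0854 and 0.105, limma). Per length, the log2 ratio of Igf1r to Insr in FPKM was 0.30 ± 0.02 in the controls and 0.24 ± 0.07 in the mimic libraries (SD, n = 3, exact permutation test, two-sided, p = 0.3). In CPM, without regard to length, it was 0.58 ± 0.02 and 0.52 ± 0.06, with the same p. A shift of this ratio was not detected, and 3 against 3 libraries cannot give a p below 0.1.

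Egfr was too low for its change to be measured well. The control libraries held 26, 21 and 37 reads and the mimic libraries 29, 35 and 30 (ENSMUSG00000020122.17, chromosome 11). These ranges overlap, and the log2 change of 0.36 had a 95% interval from -0.13 to 0.84 (adjusted p = 0.229, edgeR). The level was 0.897 ± 0.188 CPM in the controls and 1.16 ± 0.105 CPM in the mimic libraries (SD, n = 3).

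Axl, a receptor of the TYRO3-AXL-MERTK family that recognises GAS6 and is linked to mesenchymal states and drug resistance, was among the highest receptors (ENSMUSG00000002602.17, chromosome 7). It measured 226, 227 and 222 CPM in the controls and 250, 243 and 240 CPM with the mimic, with no overlap. The log2 change was 0.12 ± 0.02 (SE, adjusted p = 3.92e-05, edgeR), and 0.06 with total counts only (adjusted p = 0.0193). The other family members, Tyro3 and Mertk, did not pass, with log2 changes of -0.10 and -0.05 (adjusted p = 0.255 and 0.698, edgeR).

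The receptors for membrane-bound ligands and collagen did not move together. Ddr1 and Ddr2 are the discoidin domain receptors, which bind collagen in the matrix rather than a growth factor. Ddr1 is typical of epithelia and Ddr2 of mesenchymal cells. Ddr1 read 19.2, 19.4 and 20.8 CPM in the controls and 13.5, 12.6 and 13.4 CPM in the mimic libraries (ENSMUSG00000003534.18, chromosome 17). The lowest control was well above the highest mimic library, and the log2 change was -0.59 ± 0.06 (SE, adjusted p = 3.22e-09, edgeR). It was called under all 14 other settings, with values from -0.645 to -0.465. None of the 4 seed words was found in its 3' UTR of 811 bases, nor in the longer UTR of 1734 bases of another transcript.

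Ddr2, on chromosome 1, measured 225, 232 and 223 CPM in the controls and 236, 227 and 234 CPM in the mimic libraries (ENSMUSG00000026674.10). These groups overlap. The log2 change was 0.03 with a 95% interval from -0.01 to 0.08 (adjusted p = 0.224, edgeR), and its sign turned with total counts only (-0.022). An antisense gene, 3110045C21Rik, overlaps Ddr2 in the annotation and had 1068 reads over the 6 libraries against 39833 for Ddr2. Whether the counting used strand is not given in the sources used here, so these reads cannot be told apart with certainty.

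Ddr1 was thus the lower of the pair in every library, and more so with the mimic. The log2 ratio of Ddr1 to Ddr2 in CPM was -3.553, -3.585 and -3.418 in the controls and -4.124, -4.169 and -4.122 in the mimic libraries. The difference of -0.62 between group means exceeded the SDs of 0.089 and 0.026, and the exact two-sided permutation p of 0.1 is the smallest that 3 against 3 libraries can give. Per length, in FPKM, the ratio was -2.56 in the controls and -3.18 in the mimic libraries, and the difference was again -0.62.

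Epha2 binds ephrin-A ligands on neighbouring cells and is abundant in many carcinomas. Its 3' UTR holds the 8mer, the longest seed match among the 10 genes. The controls measured 95.7, 93.0 and 98.3 CPM and the mimic libraries 96.6, 102 and 98.8 CPM (ENSMUSG00000006445.4, chromosome 4). The groups overlap, and the log2 change of 0.05 had a 95% interval from -0.01 to 0.11 (adjusted p = 0.161, edgeR). With total counts only the value was -0.006.

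**Figure D3:**
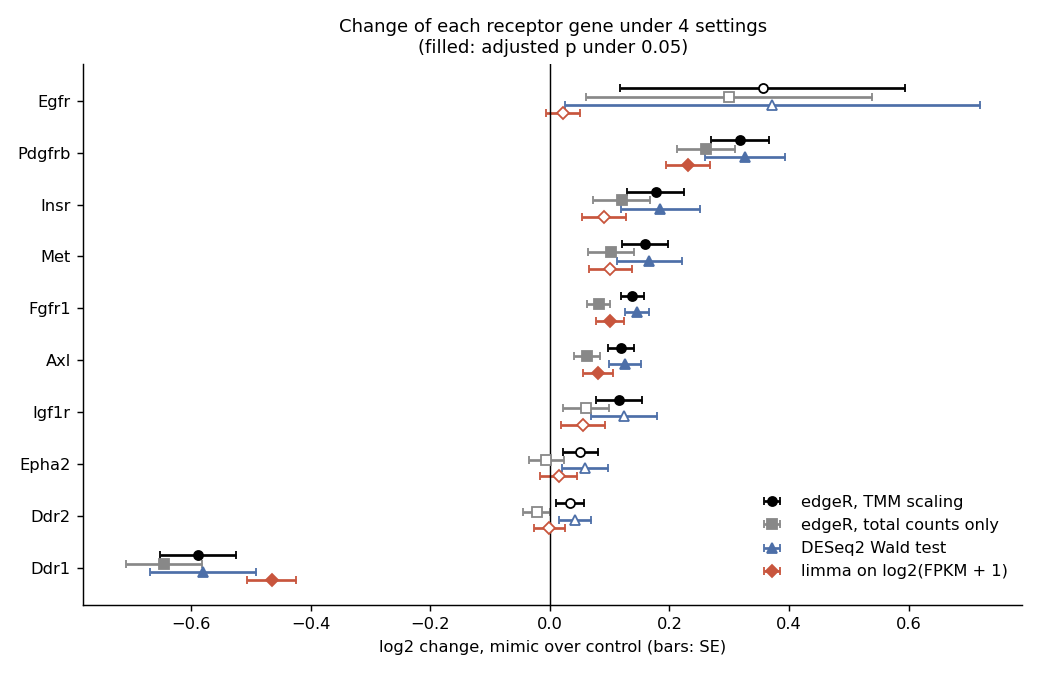
Log2 change of each receptor gene, mimic over control, with its SE, from edgeR with TMM scaling, edgeR with total counts only, the DESeq2 Wald test and limma on log2(FPKM + 1). Filled symbols have an adjusted p under 0.05. Ddr1 lies left of 0 and Pdgfrb, Fgfr1 and Axl right of 0 with filled symbols in all 4 settings, while Epha2 and Ddr2 stay near 0.

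Soluble and ephrin ligands for these receptors were followed in the cells themselves. Of those with a mean of 2 CPM or more, Pdgfa rose, Ereg, Pdgfc and Efna1 fell, and the others did not pass. Over all tested genes, 49.1% were called, 24.3% upward and 24.8% downward. The difference of any ligand family from these shares was not tested. Of the 7 EGF-family ligands, 6 could be tested and 1, Ereg, fell (4.78 ± 0.456 to 3.19 ± 0.343 CPM, log2 change -0.58, adjusted p = 0.000345, edgeR). Hbegf and Areg, with log2 changes of 0.09 and 0.02, did not pass. The AXL ligand gene Gas6 went from 2.11 ± 0.227 to 1.84 ± 0.26 CPM and did not pass (log2 change -0.20, adjusted p = 0.37, edgeR). Pros1, listed with it, had -0.07 (adjusted p = 0.457, edgeR). Of the 5 fibroblast growth factor genes tested with edgeR, 0 passed, 0 had an unadjusted p under 0.05, and 0 of the 4 that the DESeq2 Wald test gave an adjusted p passed. Each had means under 1 CPM. Igf1 and Igf2 were below the filter with means under 0.2 CPM. Hgf, Ins1 and Ins2 had no row under these symbols in the count table used.

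Of the 4 PDGF genes listed, 3 had a value, and the gene for PDGF-D was not among them. Pdgfb, whose product is a ligand of Pdgfrb, was under 1 CPM. Pdgfa rose from 1.64 ± 0.267 to 2.61 ± 0.171 CPM and Pdgfc fell from 18.1 ± 1.54 to 15.0 ± 0.832 CPM (adjusted p = 0.00177 and 0.00111, edgeR). The products of both bind chiefly the alpha receptor, Pdgfra. Of the 5 ephrin-A genes, 1 was called, beside 49.1% of all tested genes. This was Efna1, which fell from 23.7 ± 0.669 to 16.6 ± 0.777 CPM (log2 change -0.51, adjusted p = 5.8e-09, edgeR). Efna5, Efna4 and Efna2 had log2 changes of -0.09, 0.00 and 0.20, none of which passed, and in 4 of the other settings 1 ephrin-A gene rose.

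Collagen genes whose products can engage the discoidin receptors moved in both directions. Of 8 tested, 4 rose and 2 fell, beside 24.3% and 24.8% of all tested genes. Col4a1 and Col4a2, the chains of basement membrane collagen, rose from 457 ± 16.3 to 623 ± 3.97 CPM and from 301 ± 9.77 to 390.2 ± 7.65 CPM. Col8a1 and Col5a1 rose by 0.39 and 0.23 on the log2 scale. Col3a1, a fibrillar collagen, fell from 560.0 ± 20.9 to 435 ± 9.38 CPM, and Col5a2 fell by 0.27 on the log2 scale. All 6 directions held with total counts only.

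**Figure D4:**
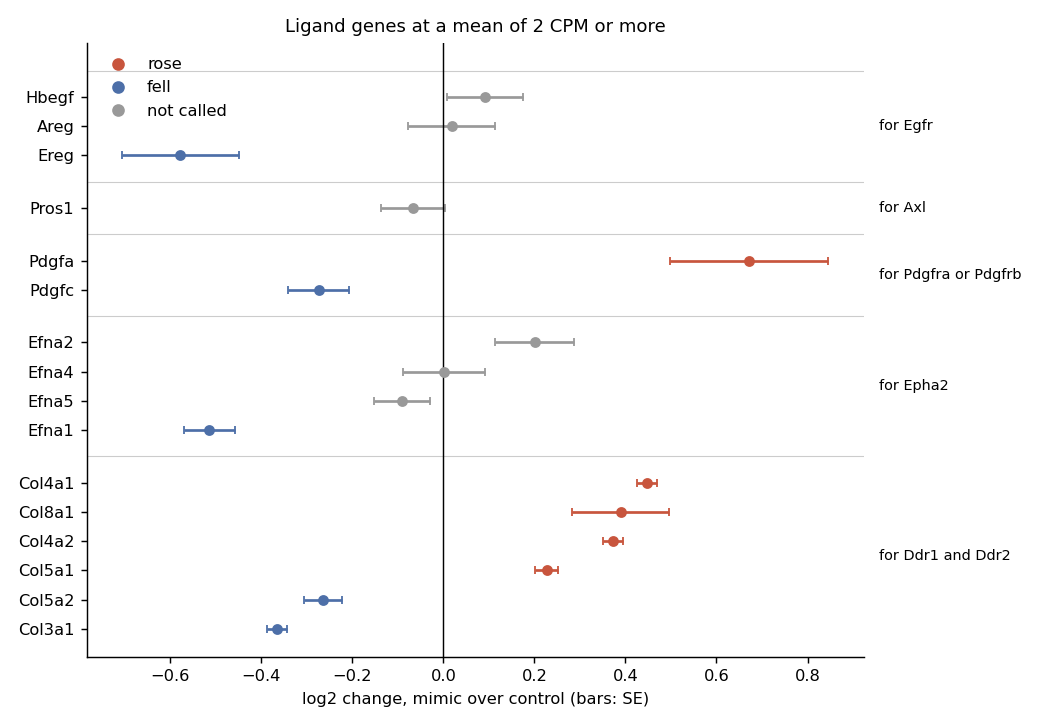
Log2 change, mimic over control, with its SE, of the ligand genes that average 2 CPM or more, grouped by the receptor gene they serve. Col4a1, Col8a1, Col4a2, Col5a1 and Pdgfa rose (red), Ereg, Efna1, Col3a1, Col5a2 and Pdgfc fell (blue), and the grey points did not pass.

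Of the 48 other receptor tyrosine kinase genes listed, 19 could be tested, with 3 risen, 4 fallen and a median log2 change of -0.09. The shares over all tested genes were 24.3% risen and 24.8% fallen. Ryk and Ptk7, kinase-inactive receptors of WNT signalling, rose from 198 ± 0.528 to 259 ± 12.2 CPM and from 20.8 ± 1.21 to 27.7 ± 0.966 CPM. Pdgfra fell from 29.8 ± 2.01 to 20.02 ± 0.799 CPM (log2 change -0.58, adjusted p = 2.86e-10, edgeR), so that the 2 PDGF receptor genes differed in direction. Styk1 fell by 0.31 on the log2 scale. Epha1, called up, and Fgfr3, called down, were named after their values were seen, and their calls were lost in 4 and 7 of 13 other settings. Without control library 1, mimic library 1 or mimic library 3, 2 of these other receptors fell. The DESeq2 Wald test on all libraries also gave 2 fallen.

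Downstream of the receptors, 25 adaptor and proximal effector genes were tested, of which 7 rose and 9 fell (median log2 change 0.02). The shares over all tested genes were 24.3% and 24.8%. Irs1, the substrate that links Igf1r and Insr to PI3K, fell from 29.6 ± 0.882 to 21.7 ± 1.65 CPM (log2 change -0.45, adjusted p = 2.96e-08, edgeR), while its relative Irs2 had a log2 change of 0.12 whose call was lost in 12 of 14 other settings. The docking protein gene Gab2 fell by 0.61 on the log2 scale. The kinase gene Src and the transcription factor gene Stat3 rose by 0.28 and 0.30. With total counts only and on both FPKM scales 4 adaptor genes rose, and with the DESeq2 Wald test 5 fell.

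Of 19 tested genes whose products restrain receptor signalling, 9 rose and 2 fell (median log2 change 0.09). Of all tested genes, 24.3% rose and 24.8% fell, and the difference from this list was not tested. Errfi1, whose product binds and inhibits the EGFR kinase domain, rose from 35.4 ± 0.639 to 54.1 ± 0.66 CPM (log2 change 0.61, adjusted p = 1.46e-14, edgeR). The suppressor of cytokine signalling gene Socs5 and the phosphatase gene Ptpn12 rose by 0.28 and 0.26, and the receptor phosphatase gene Ptprj fell by 0.25 on the log2 scale. On the FPKM scales 5 of these genes rose rather than 9.

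Among 13 tested co-receptor, sheddase and processing genes, 3 rose and 6 fell (median log2 change -0.14). For this list and those below, 24.3% of all tested genes rose and 24.8% fell. The heparan sulphate proteoglycan gene Sdc1 fell from 396 ± 3.58 to 303 ± 4.8 CPM and Sdc2 fell by 0.24 on the log2 scale, while Sdc4 rose by 0.25. Rhbdf2, an iRhom that escorts the sheddase ADAM17, rose by 0.52. The sheddase genes Adam17, Adam10 and Adam9 fell, with log2 changes of -0.17, -0.19 and -0.14 (adjusted p = 4.0e-06, 5.58e-07 and 0.00205, edgeR). Of the IGF-binding group, Igfbp6 fell by 0.39 and Igfbp4 rose by 0.15 among 5 tested, and 2 rose without mimic library 1. Of 18 endocytic sorting genes 7 fell and 3 rose (median log2 change -0.02). The count of fallen genes was 4 without control library 3, mimic library 1 or mimic library 3 and 3 without mimic library 2, and 5 rose without mimic library 3. With all libraries kept, the count of fallen genes was 3 with the DESeq2 Wald test and 4 with no filter. Sh3kbp1, an adaptor of CBL in receptor internalisation, fell from 147 ± 3.32 to 98.5 ± 4.61 CPM (log2 change -0.58, adjusted p = 1.87e-16, edgeR), and Hgs fell by 0.17. Ap2b1 and Cltc, parts of the clathrin coat machinery, rose by 0.16 and 0.14.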

How the data were processed

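Per the labels' protocols, polyadenylated RNA was made into strand-specific paired-end libraries. Per the submitters' processing notes, HISAT2 and DESeq2 were used with GRCm39. Which program counted reads, against which annotation and whether by strand, is not given in the sources used here. Deposited by the authors were read counts per gene and FPKM values, the latter for 24494 genes.

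Groups were taken from the titles. The test on all genes' counts was edgeR's quasi-likelihood test (edgeR 4.0.16, R 4.3.3), after filterByExpr and TMM, with Benjamini-Hochberg adjustment over all genes tested. The SE is the log2 change divided by the square root of F, and 95% intervals use the test's degrees of freedom. Intervals and SEs cover the spread between libraries. No 2 libraries of a group agreed within sampling noise (chi-square of 1.86 to 2.22 per gene on average). Alternatives used DESeq2 1.42.0 and limma 3.58.1. On simulated data for mimic against control (13643 genes), 55.7% of genes changed 1.2-fold and 84.8% of those changed 2-fold were recovered, and 12 of 13449 unchanged genes were called. Only 61, 67 and 66 genes were changed there (1.2-, 1.5- and 2-fold), while 49.1% of genes were called in the data. The adjusted p depends on that share, so these rates do not carry over to the data.

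The receptors and lists were chosen with earlier results of these data known. Genes named are the 10 receptors, called genes of a list (if more than 4, the 4 with the largest change whose groups do not overlap and whose mean reaches 2 CPM), ligands whose mean reaches 2 CPM, and marker genes. Added after their values were seen were the relatives Tyro3, Mertk and Irs2, the receptors Epha1 and Fgfr3, the ligand Gas6, and Adam9, Adam10 and Adam17. The values of 1 gene in the list of other receptors are not reported here.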

Additional observations from a re-analysis of the deposited data

How the results depend on the processing

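The alternatives were other scalings, filters and tests, FPKM in place of counts, a stricter adjusted p of 0.01, omission of single libraries and a replicate block. Ddr1 was the 1 receptor that fell in all 15. Counts of risen receptors were 5 or 6 except with limma on FPKM, where 3 rose with a pseudocount of 1 and 3 with 0.1. The direction turned for Epha2 with total counts only (-0.006) and for Ddr2 with total counts only (-0.022) and on both FPKM scales (-0.001 and -0.002). The cause was not tested. With any library left out, 6 receptors rose and 1 fell, the Igf1r to Insr shift was -0.097 to -0.042 and the Ddr1 to Ddr2 shift -0.653 to -0.569. With the longest 3' UTR per gene, the same count of 3 receptors held a match of 7 or 8 bases, against 21.9% of genes. With total counts only, 65.5% of called genes fell in place of 50.5%, and on the 2 FPKM scales 60.2% and 60% did.

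Deviations of same-numbered libraries correlated weakly, at 0.02, 0.075 and 0.055, but each library correlated best with its own number. The other pairs lay between -0.063 and 0.012. Whether the replicate numbers mark a pairing was not tested. With the replicate block 6 receptors rose and 1 fell, and over all genes 3403 rose and 3484 fell in place of 3349 and 3423. Counts of called genes in the other lists moved by over 1.5 times in 26 of 420 values, among them 7 for fallen endocytic genes (3 to 10 fallen) and 5 for the other receptors (2 to 5 fallen). Depth limits Egfr, with 84 control and 94 mimic reads in all.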
